A study of Homo sapiens with 4 samples.

Results

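The stretch of chromosome 14 from 20 to 40 Mb is a 20 Mb domain that was densely packed with RNA polymerase II (RNAPII)-linked DNA loops in HepG2 cells. Loops were taken as members where both anchors lay between positions 20000001 and 40000000 of chromosome 14 (GRCh38). This gave 2987 of the 66417 loops listed for mock-treated cells and 1220 of the 18778 listed for PDS-treated cells, or 3548 of 77862 distinct loops when a pair of anchors found in both lists was counted once. The domain thus held 4.50% of all mock loops and 6.50% of all PDS loops, and 66.4% and 73.6% of those on chromosome 14. The bounds were set from the loop lists themselves, so the number of loops and the ratios in the domain are given as a description.

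The loops came from POLR2A HiChIP, which ligates DNA ends that lie close together in fixed chromatin and then pulls down the fragments bound by the largest subunit of RNAPII. HepG2 is an established human liver carcinoma line with an abnormal number of chromosomes, and copy number was not measured here. Mock cells received sterilized water, and treated cells 20 µM PDS (pyridostatin), a small molecule that binds G-quadruplexes, for 24 h, with 2 biological replicates per condition. Each condition was represented by 1 pooled list of loops, in which every loop has a count of paired-end tags (PETs) of at least 3. With no values per replicate, no difference between conditions could be tested, and all intervals are 95% intervals for counting error only, from Wilson intervals except for the split of PETs, which has a likelihood interval. PETs were counted without molecular identifiers.

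A G-quadruplex (G4) is a 4-stranded structure that DNA can form where several runs of guanine stand close together, and such runs are frequent at promoters. RNAPII-linked loops join promoters with enhancers and with other promoters, and an anchor with many partners is called a hub. The domain holds 193 protein-coding genes with varied roles. Its first part carries the T cell receptor alpha and delta segments, heart myosin genes and genes of the proteasome, its middle is a gene desert around NOVA1, and its last part carries FOXA1, which encodes a pioneer transcription factor of liver cells.

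G4 motifs were searched for as 4 runs of at least 3 G, written GGG, with spacers of 1 to 7 bases of any kind, on both strands. The motifs below lie in anchors on which the results turn and show what was scored there. Capitals mark the guanine runs, each sequence is given 5′ to 3′ on the strand that carries the G runs, and coordinates are those of GRCh38. The first 3 come from the anchors of the loop with the most PETs in the domain, both within TTC6. The next 3 are those of the anchor with the most partners, upstream of DHRS4, followed by the 2 shortest of the 43 motifs in the hub over CARMIL3, CPNE6 and NRL. The last 3 are from a RALGAPA1 hub with 1 of the 2 loops that had the most PETs after PDS.
TTC6, chr14:37718822-37718846, plus strand: GGGctttctGGGaGGGtgaggtGGG
TTC6, chr14:37868687-37868707, plus strand: GGGaggaGGGctGGGaatGGG
TTC6, chr14:37870420-37870443, minus strand: GGGGcGGGGtgccGGGtgcaGGGG
DHRS4 upstream hub, chr14:23921652-23921672, plus strand: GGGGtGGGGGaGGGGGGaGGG
DHRS4 upstream hub, chr14:23927267-23927294, minus strand: GGGGaagcGGGGGcttgtGGGcctGGGG
DHRS4 upstream hub, chr14:23942204-23942228, minus strand: GGGaaGGGGtggtatGGGaaGGGGG
CARMIL3 to NRL hub, chr14:24071733-24071751, minus strand: GGGattGGGcaGGGctGGG
CARMIL3 to NRL hub, chr14:24071831-24071850, minus strand: GGGaGGGtctGGGctGGGGG
RALGAPA1 hub, chr14:35643183-35643204, plus strand: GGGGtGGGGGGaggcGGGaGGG
RALGAPA1 hub, chr14:35643885-35643909, plus strand: GGGaaGGGcagtGGGGagtatGGGG
RALGAPA1 hub, chr14:35653192-35653215, plus strand: GGGGagattGGGGacaGGGaaGGG

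Promoters of the domain ranged from G-rich to G-poor. The RefSeq table (GRCh38.p14) held 218 promoters of 157 of the 193 genes, and 64 of these, or 29.4%, had a G4 motif in the 300 bases around the start site, against 24.997% of all 35116 promoters in the table. The 250 bases before the start are printed for 4 genes with different motif content and loop counts, chosen after their values were seen, with runs of 3 or more G or C in capitals. None of these bases overlaps an exon of the GENCODE 44 annotation. TTC6, whose 250 bases lie within the annotated span of FOXA1 on the other strand, had 3 motifs in its 300-base window, whereas CARMIL3, DHRS2 and NFKBIA had 0.
TTC6, chr14:37595379-37595628, plus strand: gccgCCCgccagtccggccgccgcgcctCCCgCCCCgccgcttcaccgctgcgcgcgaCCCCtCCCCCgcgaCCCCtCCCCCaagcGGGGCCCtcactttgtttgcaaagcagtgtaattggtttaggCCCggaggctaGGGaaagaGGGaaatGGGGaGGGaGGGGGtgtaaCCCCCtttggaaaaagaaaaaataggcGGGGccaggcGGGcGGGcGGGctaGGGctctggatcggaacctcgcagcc
CARMIL3, chr14:24051759-24052008, plus strand: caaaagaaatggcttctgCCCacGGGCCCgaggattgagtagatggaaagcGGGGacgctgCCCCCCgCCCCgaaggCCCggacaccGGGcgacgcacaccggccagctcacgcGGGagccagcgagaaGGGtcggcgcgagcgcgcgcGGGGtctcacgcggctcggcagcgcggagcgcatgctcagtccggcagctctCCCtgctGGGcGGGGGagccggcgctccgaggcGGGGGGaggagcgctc
DHRS2, chr14:23629865-23630114, plus strand: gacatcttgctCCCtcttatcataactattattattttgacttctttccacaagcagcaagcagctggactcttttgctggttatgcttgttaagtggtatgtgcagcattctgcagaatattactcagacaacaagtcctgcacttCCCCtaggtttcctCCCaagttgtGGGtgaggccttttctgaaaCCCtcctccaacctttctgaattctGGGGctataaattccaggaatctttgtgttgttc
NFKBIA, chr14:35404750-35404999, minus strand: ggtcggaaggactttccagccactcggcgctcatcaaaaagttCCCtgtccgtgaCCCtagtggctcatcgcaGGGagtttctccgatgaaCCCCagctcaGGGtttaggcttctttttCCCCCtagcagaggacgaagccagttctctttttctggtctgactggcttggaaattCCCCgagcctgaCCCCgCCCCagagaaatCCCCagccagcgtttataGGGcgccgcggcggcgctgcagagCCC
The C runs of one strand are G runs of the other, as in the paired C-rich and G-rich stretches of the TTC6 sequence. DHRS2 had 43.2% G and C and no CpG dinucleotide in its 250 bases, whereas CARMIL3 had 74.0% and 34 CpG dinucleotides.

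Loops covered the domain almost without a break. Mock-treated cells had 149 loops per Mb and PDS-treated cells had 61.0. The 1876 anchors used by these loops had a median width of 5519 bp and together covered 63.9% of the 20 Mb, with no overlap among them. Over 1 Mb windows, in which each loop was counted at its midpoint, anchors covered 32.2% to 76.6%, compared with a median of 19.9% for windows elsewhere that had an anchor. The widest stretch of the domain without an anchor was 101657 bp, from 20896035 to 20997691.

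The densest window of the genome was in the domain. The window from 37 to 38 Mb, which contains FOXA1, had 268 mock loops and ranked 1st of 2397 windows, and the windows from 35, 23, 31 and 24 Mb followed with 250, 243, 242 and 239. In all, 10 of the 20 densest windows were in the domain, and the highest count outside it was 209, whereas the median outside was 18. The lowest count in the domain was 37, in the window from 20 Mb. The windows between 25 and 30 Mb, which hold 3 protein-coding genes, had 42 to 80 mock loops each, still above the median outside. Density therefore did not follow the number of genes alone: 20 to 25 Mb had 143 genes, counted at their lower coordinate, and 163 mock loops per Mb, and 35 to 40 Mb had 26 genes and 201 mock loops per Mb.

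**Figure D1:**
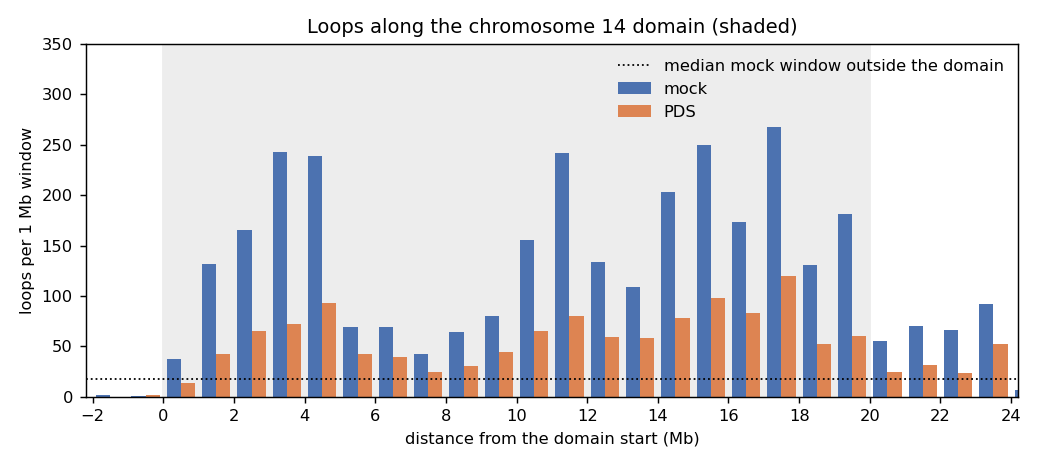
Number of loops per 1 Mb window in mock-treated (blue) and PDS-treated (orange) cells against the distance from the domain start in Mb, with the domain shaded and the median mock count of the windows elsewhere dotted. The highest blue bar, 268 loops, is the window that contains FOXA1, and the 2 windows before the domain have 2 and 1 mock loops.

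The dense stretch started near the lower bound and ended past the upper bound. The windows from 18 and 19 Mb had 2 and 1 mock loops, and those from 20, 21 and 22 Mb had 37, 132 and 165. From 40 to 44 Mb there were 283 mock loops and 133 PDS loops, or 70.8 mock loops per Mb, and anchors covered 52.2% of this stretch. Of the 92 mock loops in the window from 43 Mb, 83 lay before 43.4 Mb, past which fewer than 10 mock loops fell in the next 500 kb, and 9 after it. The next 16 Mb, from 44 to 60 Mb, had 15.5 mock loops per Mb, and no anchor was used between 45300471 and 49469261, a gap of 4168791 bp. The upper bound of 40 Mb thus cuts through a dense stretch, and the count of members would be larger with a bound at 43.4 Mb.

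In the domain, PDS loops numbered 0.408 per mock loop (0.382 to 0.437). The ratio was 0.290 (0.260 to 0.322) in the rest of chromosome 14, from 438 and 1512 loops, and 0.277 (0.272 to 0.281) in the rest of the genome, from 17558 and 63430 loops. The interval of the domain therefore did not overlap either of the others. Chromosome 20 had 0.359 (0.341 to 0.377) and chromosome 17, which is also rich in loops, had 0.274 (0.257 to 0.292). The depth of sequencing behind each list was not used here. A ratio under 1, in the domain or elsewhere, thus cannot be told apart from shallower PDS libraries. Its variation from place to place can be described, but it also depends on the PETs per loop, since loops under 3 PETs are not listed. The split of PETs given below takes that minimum into account.

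The ratio in the domain was above that in the rest of the genome also at a minimum of 5 PETs. Among loops with at least 5 PETs the mock list had 886 and the PDS list 249, which gave 0.281 (0.244 to 0.323), compared with 0.139 (0.132 to 0.146) in the rest of the genome. With at least 7 PETs the domain had 0.164 (0.124 to 0.217), below the 0.239 (0.139 to 0.409) of the rest of chromosome 14, with overlapping intervals. With 10 or more PETs, the domain had 0.090 (0.046 to 0.176) and the rest of the genome 0.080 (0.058 to 0.110). In PETs rather than loops, 12987 in mock and 4656 after PDS gave 0.359 (0.347 to 0.371), against 0.258 (0.256 to 0.260). Mock loops of the domain had on average 4.35 PETs and PDS loops 3.82, and those of the rest of the genome 3.81 and 3.55. Loops at the minimum of 3 PETs made up 48.6% of mock loops and 57.6% of PDS loops in the domain, against 60.5% and 72.1% elsewhere. Loops of the domain were thus further above the minimum of the lists in both conditions.

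All 20 windows of the domain had a ratio above the median of the 1570 windows elsewhere with at least 10 mock loops, which was 0.257, and 16 were above the upper quartile of 0.333. For comparison, 50.6% of all such windows were above that median. The lower bound of the interval was above that median in 16 windows. The lowest ratio, 0.296 (0.228 to 0.385), was in the window from 23 Mb, which holds MYH6 and MYH7 among its 28 genes. The highest, 0.609 (0.416 to 0.891), was in the window from 25 Mb, in which no protein-coding gene has its lower coordinate, though STXBP6 reaches into it. The windows from 27, 26, 29 and 33 Mb followed with 0.595, 0.565, 0.550 and 0.532, so that 4 of the 5 highest ratios lay in the gene desert.

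**Figure D2:**
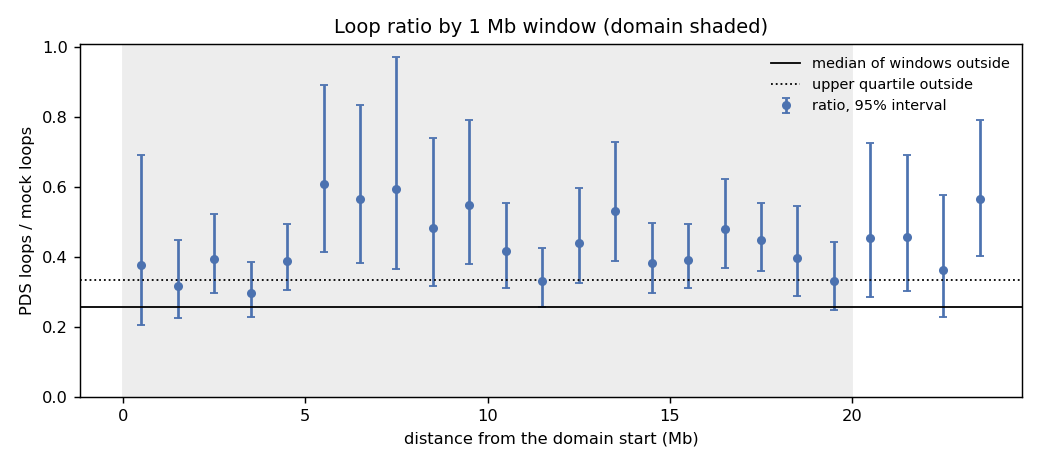
Loops after PDS divided by mock loops in each 1 Mb window, against the distance from the domain start in Mb, with 95% intervals for counting error. Lines mark the median (0.257) and the upper quartile (0.333) of the windows elsewhere. Every domain window is above the median line, and the windows 5 to 10 Mb from the start are among the highest.

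By 5 Mb stretch, the ratio was 0.350 (0.306 to 0.401) from 20 to 25 Mb, 0.559 (0.466 to 0.670) from 25 to 30 Mb, 0.403 (0.355 to 0.457) from 30 to 35 Mb and 0.412 (0.367 to 0.462) from 35 to 40 Mb. In this ratio the gene desert thus stood above the other 3 stretches, whose intervals overlapped. Its split of PETs, described below, was 0.665 (0.526 to 0.832). The other 3 stretches had 0.468 (0.393 to 0.552), 0.552 (0.477 to 0.635) and 0.558 (0.494 to 0.629). The interval of the desert overlapped each of these, so it did not stand apart in the split. Loops of the desert were mostly away from promoters, with a promoter at 5.56% of its 324 mock loops against 57.1% of the 816 from 20 to 25 Mb. It had 4.84 G4 motifs per 100 kb of anchor, and the stretch from 20 to 25 Mb had 21.3. Just outside the bound, from 40 to 44 Mb, the ratio was 0.470 (0.383 to 0.577) with 1 protein-coding gene, and from 44 to 60 Mb it was 0.25 (0.189 to 0.330). The interval just outside the bound overlapped that of 35 to 40 Mb, and the value past the end of the dense stretch was lower than both.

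Windows with more genes had lower ratios. Over the 20 windows, Spearman's coefficient was -0.87 between the number of protein-coding genes and the ratio, -0.79 between the GC content of anchors and the ratio, and -0.78 between the share of mock loops with a promoter and the ratio. Pearson's r for the same pairs was -0.56, -0.73 and -0.78. Between the share of anchors with a G4 motif and the ratio, Spearman's coefficient was -0.07 and r was -0.18. Between the number of mock loops and the ratio, Spearman's coefficient was -0.55. These 20 windows are neighbours on 1 chromosome that share libraries and base composition, and the values are descriptions without a test.

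Of the 2987 mock loops in the domain, 659, or 22.1% (20.6 to 23.6), had a counterpart with overlapping anchors in the PDS list. Over all mock loops the share was 11.0%, and in the rest of the genome it was 10.5% (10.3 to 10.8). The other 2328 domain loops were listed in mock-treated cells only, where the lists hold no loop under 3 PETs and other filters behind them are not known. Of the PDS loops, 54.0% (51.2 to 56.8) were also in the mock list, compared with 39.1% over all PDS loops and 38.01% in the rest of the genome. The 561 domain loops listed after PDS only were weak: 411 had the minimum of 3 PETs, 47 had at least 5, and the highest had 9. Shared loops were therefore more frequent in the domain than elsewhere in both directions.

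The larger share was present at equal strength of the mock loop. With 3 PETs in mock, 10.4% (8.93 to 12.1) of 1452 domain loops were shared against 5.80% in the rest of the genome, and over all loops with 3 PETs the share was 5.97%. With 4 PETs it was 19.7% (16.8 to 23.0) against 11.3%, beside 11.7% over all such loops, and with 5 PETs 26.9% (22.6 to 31.8) against 17.8%, beside 18.3%. It reached 40.8% (33.9 to 48.0) against 25.4% with 6 PETs and 56.2% (49.9 to 62.3) against 37.0% with 7 to 9. Among loops with 10 or more, 72 of 100 domain loops were shared, with an interval of 62.5% to 79.9% that overlapped the 60.7% (56.4 to 64.9) elsewhere. Chromosome 20 had 9.76% (8.76 to 10.9) at 3 PETs and 42.98% (37.98 to 48.1) at 7 to 9, so that it differed from the domain beyond these intervals only in the latter class.

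**Figure D3:**
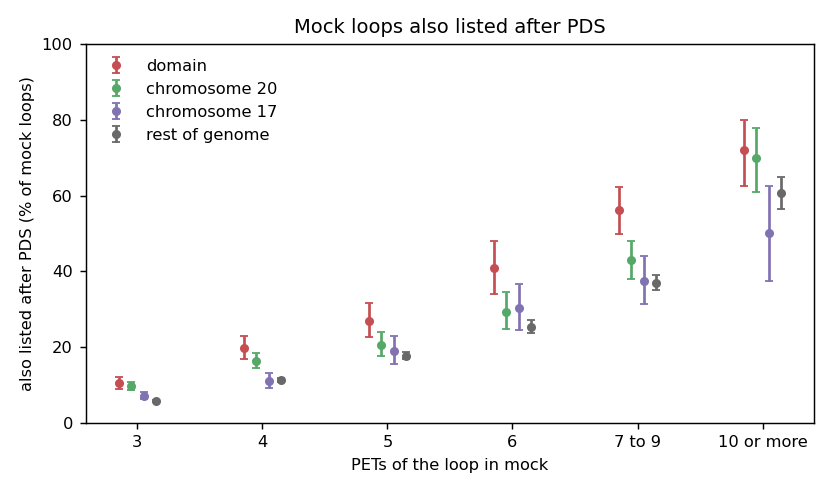
Share of mock loops also listed after PDS, in percent, by the number of PETs of the loop in mock, for the domain, chromosomes 20 and 17 and the rest of the genome, with 95% intervals. The share grows with the PETs in every set, from 10.4% to 72 of 100 loops in the domain, and the domain point is the highest of the 4 in each class.

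Within the shared loops of the domain, PETs were mostly lower after PDS. They were lower in 408 of the 659 loops, equal in 143 and higher in 108, while over all shared loops 55.3% were lower, 30.1% equal and 14.6% higher. The median of log2 PDS over mock PETs was -0.42, with quartiles of -0.81 and 0, compared with a median of -0.32 in the rest of the genome. Since both counts had to reach 3, this median depends on the level of PETs, and the split of PETs between conditions was also estimated with that minimum taken into account, over the 547 shared loops with 7 to 19 summed PETs. This gave 0.546 PDS PETs per mock PET (0.505 to 0.588) in the domain, 0.486 (0.472 to 0.500) in the rest of the genome and 0.565 (0.471 to 0.675) in the rest of chromosome 14. The split was 0.506 (0.471 to 0.542) on chromosome 20 and 0.469 (0.423 to 0.519) on chromosome 17. The domain was above the rest of the genome in this measure. Its interval overlapped those of the rest of its chromosome, of chromosome 20 and of chromosome 17, so it did not stand apart from these.

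Domain loops were longer than those elsewhere. The median distance between anchor centres was 25.6 kb in mock and 22.2 kb after PDS, compared with 17.1 kb and 16.98 kb in the rest of the genome. Loops over 200 kb made up 9.11% (8.13 to 10.2) of mock loops and 8.36% (6.94 to 10.0) of PDS loops in the domain, against 5.51% and 5.83% elsewhere. The ratio was highest for loops of 10 to 20 kb, at 0.488 (0.429 to 0.555), and was 0.342 (0.284 to 0.411) at 50 to 100 kb and 0.329 (0.264 to 0.410) at 100 to 200 kb. Loops over 200 kb had 0.375 (0.299 to 0.471). The longest mock loop joined 21877113-21895928 with 23873076-23878356 over 1989 kb with 3 PETs, and it was not listed after PDS.

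Loops without a promoter outnumbered promoter loops in the domain, and their ratio was higher. A promoter was scored where an anchor lay within 1 kb of a protein-coding start site in the GENCODE 44 annotation. Promoter loops made up 36.6% (34.8 to 38.3) of mock loops and 30.2% (27.7 to 32.9) of PDS loops, against 46.4% and 42.1% in the rest of the genome. The ratio was 0.309 (0.245 to 0.390) for the 301 mock loops with promoters at both anchors, 0.349 (0.304 to 0.4001) for the 791 with 1 and 0.449 (0.414 to 0.487) for the 1895 with none. The split of PETs in shared loops followed the same order, at 0.319 (0.238 to 0.417), 0.499 (0.425 to 0.582) and 0.611 (0.556 to 0.669). Elsewhere in the genome the ratio was 0.251 for both kinds of promoter loop and 0.299 for the others. The split there was 0.446 (0.414 to 0.480), 0.471 (0.447 to 0.495) and 0.511 (0.490 to 0.532) in the same order. For loops with promoters at both anchors the split was thus lower in the domain than elsewhere, with intervals that overlapped.

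Loops of the domain with and without a G4 motif had similar ratios, with overlapping intervals. A motif was present in at least 1 anchor of 67.5% (65.8 to 69.1) of mock loops and 68.1% (65.4 to 70.7) of PDS loops, compared with 75.6% and 76.0% in the rest of the genome. The ratio was 0.406 (0.352 to 0.468) with motifs in both anchors, 0.415 (0.377 to 0.458) with a motif in 1 and 0.401 (0.356 to 0.451) with none. Among promoter loops it was 0.338 (0.295 to 0.388) with a motif and 0.337 (0.267 to 0.425) without, and among the other loops 0.462 (0.418 to 0.511) and 0.426 (0.372 to 0.488). Promoter windows gave a like picture, since the promoter loops of the 52 genes with a motif in a RefSeq promoter had a ratio of 0.321 (0.267 to 0.385) and those of the 105 without had 0.348 (0.306 to 0.397). In this pair a loop was counted once for each gene at its anchors and could enter both groups. The intervals of this pair treat such repeats as separate loops and are too narrow to that extent. The intervals in each of these pairs overlapped, which leaves room for differences of their width. The motif is a match of letters, and formation of a G4 was not measured in these files.

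The ratio moved more with the width of the anchors. In 4 classes of near-equal size by mean anchor width, it was 0.273 (0.234 to 0.319) for the narrowest loops of the domain, then 0.416 (0.364 to 0.474), 0.436 (0.383 to 0.497) and 0.507 (0.448 to 0.574) for the widest. At the same bounds of width, the rest of the genome had 0.218 (0.211 to 0.226), 0.258 (0.2499 to 0.266), 0.300 (0.290 to 0.310) and 0.391 (0.377 to 0.406). The domain was above the rest in each class, with intervals that did not overlap. Within these classes, domain loops with a G4 motif had 0.272, 0.410, 0.434 and 0.489, and those without had 0.275, 0.425, 0.442 and 0.581. The values with a motif were lower in all 4 classes, by less than the width of the intervals, which overlapped in each. Loops without a promoter had wider anchors, with a median of 9102 bp against 7111 bp for loops with promoters at both anchors, and the part of width in the promoter difference was not tested.

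**Figure D4:**
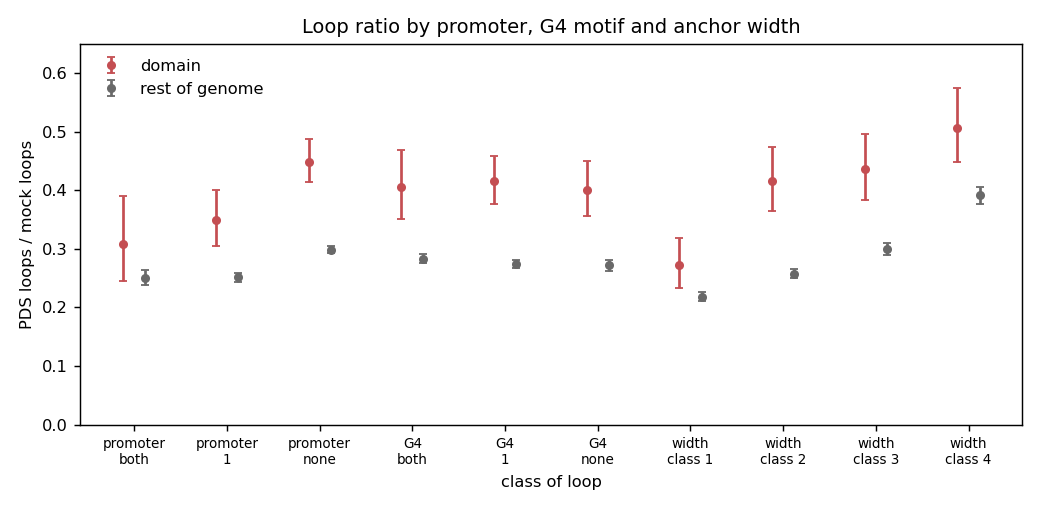
Loops after PDS divided by mock loops, with 95% intervals, for loops grouped by promoters, by G4 motifs and by mean anchor width (class 1 is the narrowest), in the domain (red) and the rest of the genome (grey). The ratio of the domain rises from 0.309 to 0.449 as promoters are left out and from 0.273 to 0.507 with width, and lies between 0.401 and 0.415 in the 3 G4 classes.

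Hubs, taken as anchors with 10 or more partners, were concentrated in the domain. Among mock anchors, 88 of the 1745 in the domain were hubs, or 5.04%, compared with 0.448% of all mock anchors and 0.335% of the 71746 used by other loops. After PDS, 8 anchors of the domain were hubs, 7 of them also in mock, and 6 elsewhere. All 88 mock hubs had fewer partners after PDS, as did 99.1% of mock hubs over the genome, and the median went from 12 partners to 4. The number of partners kept per mock partner ranged from 0 to 0.900 with a median of 0.341. Since the hubs were picked for high counts in mock, a lower count in the other list is in part set by that choice.

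Most hubs had no protein-coding promoter, though promoters were more frequent at hubs than at the anchors of the domain in general. Of the 88, 61 had no such promoter and 27, or 30.7%, had one, compared with 17.4% of the 1745 mock anchors. A G4 motif was in 45, or 51.1%, against 35.4% of mock anchors, and 27 hubs lay outside every protein-coding gene. By stretch, 23 lay from 20 to 25 Mb, 4 from 25 to 30 Mb, 25 from 30 to 35 Mb and 36 from 35 to 40 Mb. Hub anchors were wide, with a median of 15232 bp against 5519 bp for all anchors of the domain, and the part of width in these shares was not tested. Of the mock loops, 35.2% used a hub anchor. The share of loops also listed after PDS was 24.7% with a hub anchor and 20.6% without.

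**Figure D5:**
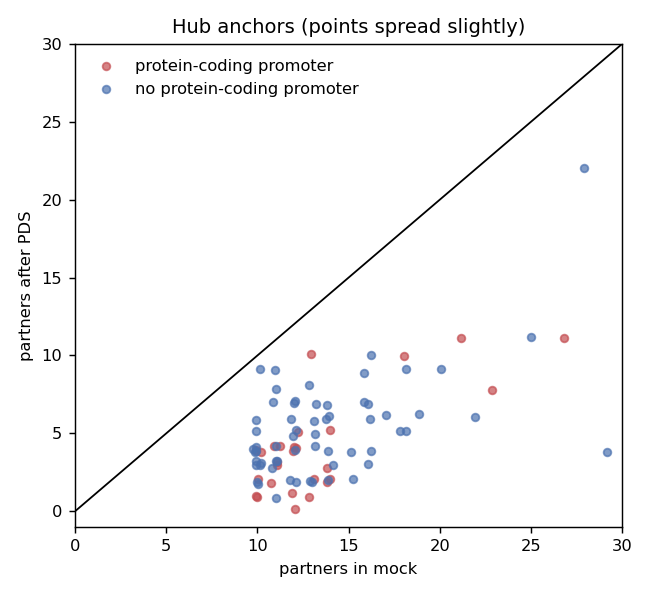
Partners after PDS against partners in mock for the 88 mock hubs of the domain, in red with and in blue without a protein-coding promoter, with points spread slightly to separate them and a line of equality. All points are below the line, and 1 hub, within PRORP, stands apart with 28 partners in mock and 22 after PDS.

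The anchor with the most partners, 23921604-23946513, lies outside genes, 7221 bp from DHRS4, which encodes a short-chain dehydrogenase. It had 29 partners in mock and 4 after PDS, and 117 and 17 PETs. The second, 35210336-35242805 within PRORP, which encodes the catalytic subunit of mitochondrial RNase P, had 28 and 22 partners and 148 and 98 PETs. The first had the 3 G4 motifs printed above and the second had 1 motif. These anchors, of similar rank in mock, were thus far apart after PDS.

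Around FOXA1, several anchors in the long genes MIPOL1 and TTC6 were hubs. The anchor 37411003-37441286 in MIPOL1 had 27 partners in mock and 11 after PDS. Within TTC6, 37702683-37722450 had 25 and 11, 37863515-37880870 had 22 and 6, and 37605518-37629962 had 21 and 11. The loop between the first and second of these TTC6 anchors spanned 160 kb and had the most PETs of any mock loop in the domain, 31, with 9 after PDS. Of the 8 anchors that were hubs after PDS, 5 lay in MIPOL1 or TTC6. The anchors of PRORP, ARHGAP5 and an intergenic site, 38822601-38847210, were the others, and the last had 8 partners in mock and 13 after PDS.

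Other hubs with over 15 partners in mock also had fewer after PDS. The hub over the promoters of CARMIL3, CPNE6 and NRL, 24050737-24085185, had 43 motifs and 57.0% GC, and went from 23 partners to 8. The hub within RALGAPA1, 35640435-35668433, went from 20 to 9, and the hub at 24692237-24728192, 57970 bp from GZMB, from 19 to 6. In STXBP6, 24849556-24876100 went from 18 to 5, and at an alternative start near the 3′ end of ARHGAP5, 32139375-32173163 went from 18 to 10. The anchor over the upstream start of ARHGAP5, 32070148-32080490, went from 10 to 2. Narrower promoter anchors were among those with least left: the PSMA6 anchor 35288449-35293400, of 4952 bp, went from 12 partners to 0, and that of AP4S1 and STRN3, 31023362-31028688, from 13 to 1.

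A group of 3 hubs stood side by side at NFKBIA, which encodes the inhibitor of NF-kB and whose promoter is printed above. The promoter anchor 35401859-35408052 had 11 partners in mock and 4 after PDS. The anchors 35362478-35377742 and 35412615-35423373, on either side of it, had 16 and 16 in mock and 7 and 6 after PDS. The latter formed a loop of 274 kb with 35139401-35148154 in PRORP, which had 14 PETs in mock and was not listed after PDS.

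Joined through shared anchors, the mock loops of the domain formed a few large networks. The largest held 977 of the 1745 mock anchors and 1891 loops and reached from 28675825 to 39942485, over 11.3 Mb. The next held 325 anchors from 20997692 to 24443729. After PDS the largest network held 180 of 1213 anchors, over 3.097 Mb from 35916437 to 39013734, which includes FOXA1, and the number of separate networks was 182 against 90. A list with fewer loops has fewer links to join anchors, and this difference was not separated from the number of loops.

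The strongest loops lay both within and between genes. After the TTC6 loop, the highest mock count was 24 PETs between 39043040-39065774 and the SEC23A promoter anchor 39066641-39088372, with 13 after PDS, where SEC23A encodes a coat protein of vesicles leaving the endoplasmic reticulum. The loop between 23969004-23975188 at DHRS4L2 and 24006133-24016782 had 21 and 12, but 69.4% and 53.2% of the 31-base sequences in its anchors have further copies in the genome, so reads of the DHRS4 paralogs may be split there. An intergenic loop of 9.68 kb from 31255873-31266943, 24845 bp from HEATR5A, had 21 and 3. The loop at the HNRNPC promoter, 21260151-21271039, had 20 and 5, and that over ARHGEF40, ZNF219 and TMEM253 had 19 and 5. All of these had lower counts after PDS, to between 3 and 13 PETs.

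Among the 108 shared loops with more PETs after PDS, the differences were small. The highest PDS count was 13, shared by the SEC23A loop and a loop of RALGAPA1 between 35640435-35668433 and 35673820-35692757, which had 9 in mock. The same RALGAPA1 hub formed a loop with 35632859-35638700 that had 3 and 7. A loop within NUBPL had 3 and 7, an intergenic loop from 36611415 had 4 and 8, and the loop between the promoters of TINF2 and of DHRS1 and NOP9 had 3 and 6. The strongest loop found after PDS only, 28607967-28625662 with 28626604-28644779, lay in the desert and had 9 PETs. These changes of 3 to 4 PETs have no replicate check, and the level of the PDS-only loop in mock is not known.

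Conversely, 8 of the strongest mock loops not listed after PDS had 12 to 16 PETs. The highest, with 16, joined 31255873-31266943 with 31323926-31334360 in HEATR5A, the same anchor as in the intergenic loop above. Loops at the promoters of ARHGAP5 and AKAP6 had 14 each, and a loop of the CARMIL3 to NRL hub with 24032383-24039627 had 13. Loops within MIPOL1 and RNF212B had 13 and 12. Loops with such counts were otherwise mostly retained, as the share of 72 in 100 above shows.

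Most genes of the domain had a loop at a promoter. In mock, 170 of 193 protein-coding genes, or 88.1%, had at least 1 promoter loop, against 59.9% of all protein-coding genes. After PDS, 127, or 65.8%, had one, against 28.7%, and 102, or 52.8%, had a shared loop, against 14.8%. Promoter loops were fewer after PDS for 159 genes, or 82.4%, against 54.3% over the genome, more for 8, against 3.37%, and as many for 26. These shares are over all genes, and a gene without a mock loop cannot have fewer. Of genes with a mock promoter loop, 159 of 170 in the domain and 10871 of 11983 over the genome had fewer. The gene groups below are near or above these shares of the domain for mock loops, but not in each case for PDS or shared loops. Their counts are given as descriptions. A gene with several start sites was counted at each of them, genes that share an anchor share its loops, and loops are not RNA levels.

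In the FOXA1 neighbourhood, all 11 genes had mock promoter loops and all 11 had fewer after PDS. MIPOL1 had 78 and 41, the highest count in the domain, and TTC6 had 38 and 20 over all its start sites. The TTC6 hub 37605518-37629962, which holds a start site of TTC6 outside FOXA1, had 21 and 11 partners. FOXA1 itself had 4 and 1. PAX9, a paired-box transcription factor, had 10 and 2, and SLC25A21, a mitochondrial carrier, had 10 and 3. NKX2-1, a transcription factor of lung and thyroid, had 6 and 2. The list as a whole had 163 loops in mock and 73 after PDS, with a median per gene of 6 and 2.

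Genes of the proteasome and of ubiquitin and NEDD8 transfer had 112 promoter loops in mock and 27 after PDS, and 10 of 11 had fewer. PSMA6, a subunit of the proteasome core, had 22 and 3, and G2E3, a ubiquitin ligase, had 17 and 8. PSMB5, which carries a catalytic site of the proteasome, had 7 and 1. PSMB11, the thymus form of that subunit, had 3 and 3.

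The list of RNA processing and chromatin genes had 173 promoter loops in mock and 35 after PDS, with 18 of 20 lower and 1 higher. HNRNPC, which binds nascent transcripts, had 34 and 8. The list also held STRN3, a striatin, with 30 and 3 of these loops. CHD8, a chromatin remodeller, had 15 and 0, SUPT16H, a subunit of the histone chaperone FACT, had 7 and 0, and PNN, a splicing-associated protein, had 6 and 0. PRMT5, an arginine methyltransferase, had 12 and 2. A count of 0 means only that no loop was listed. TEP1 had 5 and 4, and NOP9 had 5 and 4.

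Secretory pathway genes had 150 promoter loops in mock and 43 after PDS, and 12 of 13 had fewer. MIA2, which takes part in cargo export from the endoplasmic reticulum, had 37 and 5, whereas SEC23A, a coat protein of the same step, had 22 and 11. SCFD1, which acts in vesicle fusion, had 21 and 7, and SRP54, the signal recognition particle subunit, had 9 and 4. DAD1, a subunit of the oligosaccharyltransferase, had 8 and 5.

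Genes of metabolism and transport had 144 promoter loops in mock and 53 after PDS, with 15 of 16 lower. EGLN3, a prolyl hydroxylase of the hypoxia pathway, had 37 and 15, and NUBPL, an assembly factor of respiratory complex I, had 23 and 18. SLC7A7, an amino acid transporter subunit, had 16 and 3, and PCK2, the mitochondrial phosphoenolpyruvate carboxykinase, had 10 and 3. DHRS2, a short-chain dehydrogenase whose promoter sequence above holds no motif, had 14 and 0. DHRS1 had 6 and 6.

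Signalling genes had 160 promoter loops in mock and 68 after PDS, with 11 of 13 lower and 2 higher. RALGAPA1, which acts on Ral GTPases, had 52 and 19, ARHGAP5, a GTPase-activating protein, had 28 and 11, and NFKBIA had 11 and 4. PRKD1, a protein kinase at the edge of the desert, had 7 and 9, and LTB4R, a leukotriene receptor, had 0 and 2. The genes of a list share anchors, and no test was made between lists.

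Genes known for heart, nerve or blood cells had mock promoter loops about as often as the genes of the domain in general. After PDS, 8 of these 15 had at least 1, against 65.8% of domain genes. The group had 130 promoter loops in mock and 45 after PDS, with 14 of 15 genes having at least 1 in mock, against 88.1% of domain genes, and 13 of 15 having fewer after PDS, against 82.4%. NRL, a photoreceptor transcription factor within the CARMIL3 hub, had 38 and 10, AKAP6, a scaffold protein of heart muscle, had 25 and 12, and STXBP6 had 25 and 11. MYH6, a heart myosin, had 12 and 4. NOVA1, a neuronal splicing factor, had 1 and 0. Over the genome, 9 of 10 hepatocyte markers had a mock promoter loop, with 53 loops in all, as did 8 of 10 markers of other cell types, with 33, where ALB and HNF4A had 13 each. After PDS, 8 of 10 hepatocyte markers and 4 of 10 others had a promoter loop, with 17 and 8 loops. Over all protein-coding genes the shares were 59.9% in mock and 28.7% after PDS. Markers of other cell types were thus not free of loops in mock.

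The interval of the T cell receptor alpha and delta segments, from 21621838 to 22552156, also held loops. It had 75 mock loops with both anchors inside and 44 PDS loops, a ratio of 0.587 (0.405 to 0.849). This interval overlapped that of the domain, and the loops of the interval were not assigned to single segments.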

How the data were processed

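One list of loops per condition was deposited for 4 POLR2A HiChIP libraries from HepG2 cells, 2 mock-treated and 2 PDS-treated. The authors aligned reads to GRCh38, removed duplicates, assigned them to MboI fragments and filtered valid pairs with HiC-Pro 3.1.0; the caller that set the anchors, and how replicates were pooled, are not given in the sources used here. The deposited values are raw PET counts per loop, not scaled for depth, with totals of 254647 PETs in 66417 mock loops and 67001 in 18778 PDS loops. Chromosome names and lengths matched the reference, and MboI sites were found within 8 bp of both ends of all 1877 anchors checked.

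Positions were read as 1-based. Loops were shared where both anchors overlapped by at least 1 bp, and windows of 1 Mb used loop midpoints. The interval of a ratio followed from a Wilson interval on PDS loops among all loops, and that of the PET split from a binomial likelihood truncated at 3 PETs in each list. The domain, the gene lists and the markers were chosen with earlier results of these data known. Named genes were those at the anchors with most partners, at the strongest loops, with most promoter loops in a window, and in the lists; a few items are not reported here. Computation used Python 3.11.15, numpy 2.4.6, pandas 2.3.3, scipy 1.17.1 and networkx 3.6.1. Only the PET split and the interval of a ratio were tested on simulated data. Alternatives to the PET minimum, bounds, overlap, promoter and motif rules are given in the closing section.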

Additional observations from a re-analysis of the deposited data

How the results depend on the processing

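The ratio of PDS to mock loops in the domain, 0.408, was 0.359 in PETs, 0.337 with at least 4 PETs and 0.281 with at least 5. It stayed within its interval with 1 anchor inside (0.409), from 21 to 39 Mb (0.415), without loops around FOXA1 (0.402) and without hub anchors (0.435). Alternatives chosen after seeing the data gave 0.415 with a bound at 43.4 Mb, 0.345 for anchors narrower than the median and 0.472 for wider ones. The rest of chromosome 14, at 0.290, had 0.186 with at least 5 PETs and 0.274 in PETs, and the rest of the genome, at 0.277, had 0.139 and 0.258, so the domain was above both under each of these. The shared share of 22.1% stayed 22.1% with reciprocal overlap, was 49.2% after adding 2500 bp to each side of the anchors, and was 17.3% in matching only loops of 5 or more PETs. Promoter shares of 36.6% in mock and 30.2% after PDS became 40.7% and 35% within 2500 bp, and 60.4% and 56.9% with genes of any type. The highest window ratio, 0.609 at 25 Mb, was at 26 Mb with 500 kb windows (0.735) and with at least 5 PETs (0.667), and at 29 Mb when loops were counted at each anchor (0.581), so the 25 Mb window was highest in the setting reported and in none of these alternatives. The 88 mock hubs became 171 with 8 or more partners, 23 with 15 or more and 16 when only loops of at least 4 PETs were used. G4 motif shares of 67.5% and 68.1% became 81.6% and 83.6% with spacers of 1 to 12 bases and 21.7% and 21.6% when both anchors were required. The PET split was 0.540 over 8 to 25 summed PETs and 0.542 without the FOXA1 locus. The median log2 ratio of shared loops was -0.74 with at least 5 PETs in mock. Of the 34 alternatives run, 22 moved a result and 12 left it the same. A result with an interval was taken as moved where the alternative value lay outside that interval. Only the median log2 ratio has a sign that could reverse, and it stayed negative. The other results are ratios, shares or counts, for which a reversal of sign was not possible. No paired analysis was possible because each condition has 1 list in which replicates are not separate; for the same reason leaving out a replicate was not run. Loops under 3 PETs are not listed, so a missing loop is not shown to be absent, and differences of a few PETs are within counting error.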
